A study of Mus musculus with 10 samples.

Results

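Of 47 genes listed for interferon signalling and the interferon response, 43 were measured by probe sets that name 1 gene, out of 22180 genes measured in all. They comprise receptors, transcription factors, sensors of viral RNA and interferon-stimulated genes from a list drawn up by name with earlier results of these data known. Oas1a, Gbp2 and Irf5 sit on probe sets that name several genes, and together with Ifi44 they were not analysed here. The samples were the chlorine-exposed group, 5 male FVB/NJ mice aged 9 weeks that had breathed 235 ppm of chlorine for 1 hr and were killed 4 days later, and the unexposed group, 5 male FVB/NJ mice of the same age without treatment. From each mouse the connective tissue under the tracheal epithelium was cut out of stained frozen sections by laser capture, pooled over sections, and run on 1 array. Values are log2 intensities summarised by the authors with robust multi-array averaging (RMA), a gene's value is the mean of its probe sets, and the number of arrays limits the precision. A gene was called higher or lower at an adjusted p under 0.05 in a limma fit over all 22180 genes. Such data do not separate more cells of a type from more RNA per cell.

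Interferons are cytokines of antiviral defence. Type I interferons (the alpha family and interferon beta) bind a receptor built of Ifnar1 and Ifnar2, and type II interferon (interferon gamma), made mainly by T and natural killer cells, binds one of Ifngr1 and Ifngr2. Type I signals assemble a complex with Stat2 and Irf9 in it that binds the interferon-stimulated response element (ISRE) in promoters, whereas type II signals act mainly at the gamma-activated site (GAS). The Ifit, Oas and Mx genes are classical targets of type I signals, and the guanylate-binding proteins (Gbp), Irf1 and the immunity-related GTPases (Irgm) are classical targets of type II signals, although many of these genes answer to both.

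Promoters were read from RefSeq windows (GRCm38.p6) running from 250 bases before to 50 bases after each annotated start, which were at hand for 36 of the 43 genes. A core of the response element, GAAA followed after any 2 bases by another GAAA, on either strand, lay in a window of 20 of the 36 genes (55.6%), and in 1079 of all 27025 genes with a window (3.99%). The palindromic GAS letters TTCNNNGAA lay in windows of 15 of the 36 genes (41.7%), against 2582 of all 27025 (9.55%). In 2 windows the motifs overlapped. The core was found for 10 of the 15 called genes that have a window (66.7%) and for 10 of the 21 that were not called (47.6%). GAS letters were found for 8 of the 15 (53.3%) and 7 of the 21 (33.3%). Both shares were larger among called genes, but matches stood on both sides of the call, and the differences were not tested. Among the Gbp, Irgm, Irf1 and Igtp genes, 6 of 7 had the core and 5 of 7 GAS letters, and among the Ifit, Oas and Mx genes 3 of 6 had the core and 1 of 6 GAS letters. A match is a string of letters, not a site shown to be bound.

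The sequences below are the 250 bases before the start of 7 of these genes, all on the plus strand and written 5′ to 3′, with matches to either motif in capitals. Gbp5 (chr3:142496684-142496933), Ifit2 (chr19:34550444-34550693) and Stat2 (chr10:128270248-128270497) had the largest called rises among the type II targets, the type I targets and the transcription factors, and Isg20 (chr7:78913174-78913423) the largest called fall. Igtp (chr11:58199306-58199555), Irgm2 (chr11:58214727-58214976) and Ifit1 (chr19:34640639-34640888) were added after the values were seen, the first pair for a shared arrangement and Ifit1 because it was not called. Ifit2 and Isg20 have several annotated starts, and the one with the lowest coordinate is shown.
Gbp5: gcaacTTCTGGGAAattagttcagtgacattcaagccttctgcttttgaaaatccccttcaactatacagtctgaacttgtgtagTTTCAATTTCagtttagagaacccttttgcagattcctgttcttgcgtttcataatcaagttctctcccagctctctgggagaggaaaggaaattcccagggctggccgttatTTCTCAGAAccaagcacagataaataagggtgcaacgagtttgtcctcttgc
Ifit2: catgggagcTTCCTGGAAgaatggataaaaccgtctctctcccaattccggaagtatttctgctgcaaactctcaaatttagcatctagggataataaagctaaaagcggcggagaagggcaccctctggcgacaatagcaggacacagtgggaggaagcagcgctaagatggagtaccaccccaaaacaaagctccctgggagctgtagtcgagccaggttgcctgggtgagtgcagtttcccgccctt
Stat2: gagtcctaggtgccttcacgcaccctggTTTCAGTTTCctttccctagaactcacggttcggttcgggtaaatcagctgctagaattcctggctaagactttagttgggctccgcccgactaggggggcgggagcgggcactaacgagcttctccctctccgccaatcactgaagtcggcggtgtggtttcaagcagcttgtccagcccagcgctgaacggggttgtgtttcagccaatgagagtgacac
Isg20: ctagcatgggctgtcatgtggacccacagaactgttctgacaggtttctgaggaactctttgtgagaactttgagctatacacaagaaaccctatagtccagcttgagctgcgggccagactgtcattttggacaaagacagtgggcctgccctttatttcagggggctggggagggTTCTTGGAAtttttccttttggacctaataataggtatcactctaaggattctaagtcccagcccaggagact
Igtp: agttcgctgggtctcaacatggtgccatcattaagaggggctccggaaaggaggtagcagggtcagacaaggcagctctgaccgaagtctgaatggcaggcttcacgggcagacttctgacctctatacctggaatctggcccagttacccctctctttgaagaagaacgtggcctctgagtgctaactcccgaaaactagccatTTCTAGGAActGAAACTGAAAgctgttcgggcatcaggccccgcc
Irgm2: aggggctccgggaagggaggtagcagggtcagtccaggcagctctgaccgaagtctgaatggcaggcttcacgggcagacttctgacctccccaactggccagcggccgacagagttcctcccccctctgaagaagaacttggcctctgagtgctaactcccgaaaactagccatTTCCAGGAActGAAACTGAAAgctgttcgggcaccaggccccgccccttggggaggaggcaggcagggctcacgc
Ifit1: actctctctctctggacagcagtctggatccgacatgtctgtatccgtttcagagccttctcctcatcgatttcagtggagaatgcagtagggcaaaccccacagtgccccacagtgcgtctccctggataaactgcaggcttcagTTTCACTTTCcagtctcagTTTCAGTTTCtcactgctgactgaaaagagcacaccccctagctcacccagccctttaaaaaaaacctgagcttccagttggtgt

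In Igtp and Irgm2, GAS letters began 11 bases before the response element core, at 45 and 75 bases before the start. Over the 21 bases from the first letter of the GAS to the end of the core the promoters were identical at 20. With the cores aligned and no gap allowed, they were identical at 184 of 270 bases (68.1%). Runs of identical bases also lay outside the motifs, some of them out of register in this alignment. Both genes were called higher in exposed mice. Ifit1 carried 2 cores, 104 and 85 bases before its start, and was not called, whereas Ifit2 was called higher and had no core in either of its windows. Ifit3 carried 2 cores, 156 and 122 bases before its start, and was called higher. Isg20, called lower, had GAS letters 73 bases before the start shown and no core.

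The captured tissue was not mesenchyme alone. Markers of mesenchyme were strong in both groups, and Col1a1, a chain of type I collagen, averaged 9.74 ± 0.50 in exposed and 8.87 ± 0.12 in unexposed mice (SD, n = 5 each). Secretory cell markers also lay far above the array medians except in exposed mouse 3, with a mean over 6 genes of 5.53 to 11.83 in the exposed mice and 12.27 to 12.36 in the unexposed mice, and Epcam, a marker of epithelium, had a log2 difference of -0.28 (adjusted p = 0.592). Exposed mouse 3 had the lowest secretory mean and exposed mouse 1 the highest of their group. The count of all interferon genes called is given below with and without this pair. Counts by role or by list are given with it only. Arrays correlated at 0.950 to 0.974 within the exposed group and at 0.935 to 0.967 between groups. On arrays no marker reads 0, and RMA values carry no detection limit.

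Interferon genes were far more often called higher than lower 4 days after chlorine, with the GTPase Iigp1 and the nucleic acid sensor Zbp1 in front. Of the 43 genes, 16 were called higher (37.2%) and 2 lower (4.65%), and 25 were not called, whereas of all 22180 genes 5.85% were called higher and 4.97% lower. The share called higher thus lay well above that of all genes, and the share called lower was close to it. Earlier results of these data were known when the list was chosen, which limits this comparison. The median log2 change of the 43 was 0.34, beside one of -0.0035 over all genes tested. Changes ran from -0.63 (Isg20) to 1.70 (Iigp1), and 3 genes, Iigp1, Zbp1 and Gbp5, differed at least 2-fold. All exposed mice lay above all unexposed mice for 14 of the 16 genes called higher, and below them for both called lower. Counted over all 43 genes, called or not, groups did not overlap upward for 16 (37.2%) and downward for 2 (4.65%). Over all genes tested these shares were 5.89% and 5.06%. Among the 25 genes not called, 17 had changes above 0. Without exposed mice 1 and 3, all 16 genes stayed called higher and 6 more joined them, while neither of the falls was called. This pair holds the lowest exposed values of 19 and 20 of the 43 genes, so leaving it out by itself raises the exposed means of those genes. The count over all genes without this pair is not given here, so the added calls are not set against all genes. With 1 mouse left out, 11 to 20 genes were called higher and 1 or 2 lower, and 9 of the 18 calls held in all 10 such fits.

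**Figure D1:**
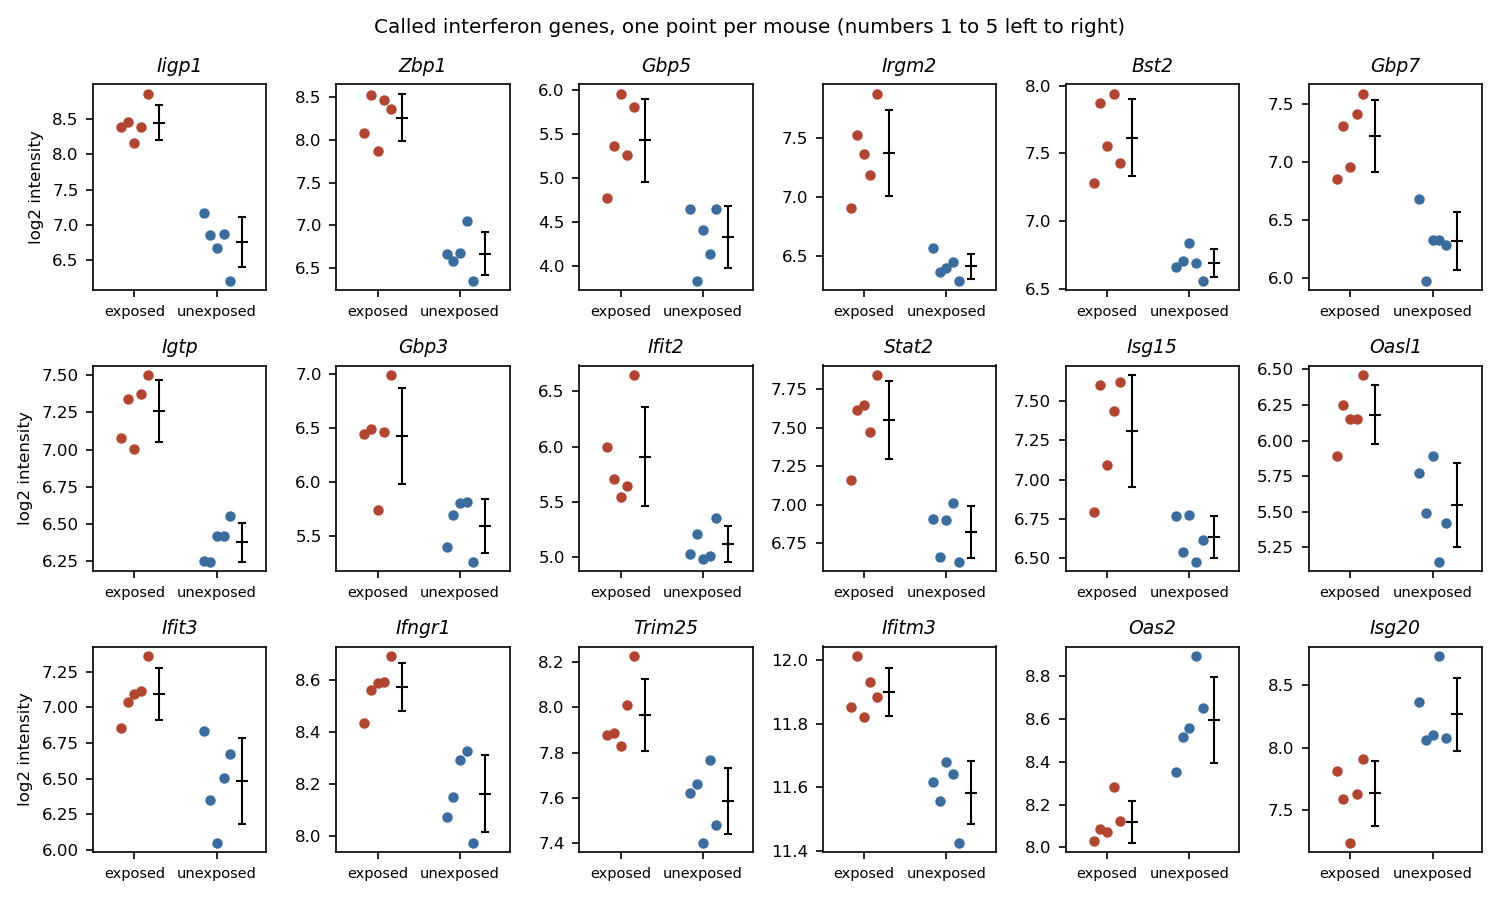
Log2 intensity of the 18 called interferon genes in each mouse, with exposed mice in red on the left and unexposed mice in blue on the right of each panel, 1 point per mouse; black marks are the mean and SD of the 5 mice. The axes do not start at 0 and differ between panels. Exposed mice lie higher in 16 panels and lower for Oas2 and Isg20, and only the points of Oasl1 and Gbp3 overlap between groups.

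**Figure D2:**
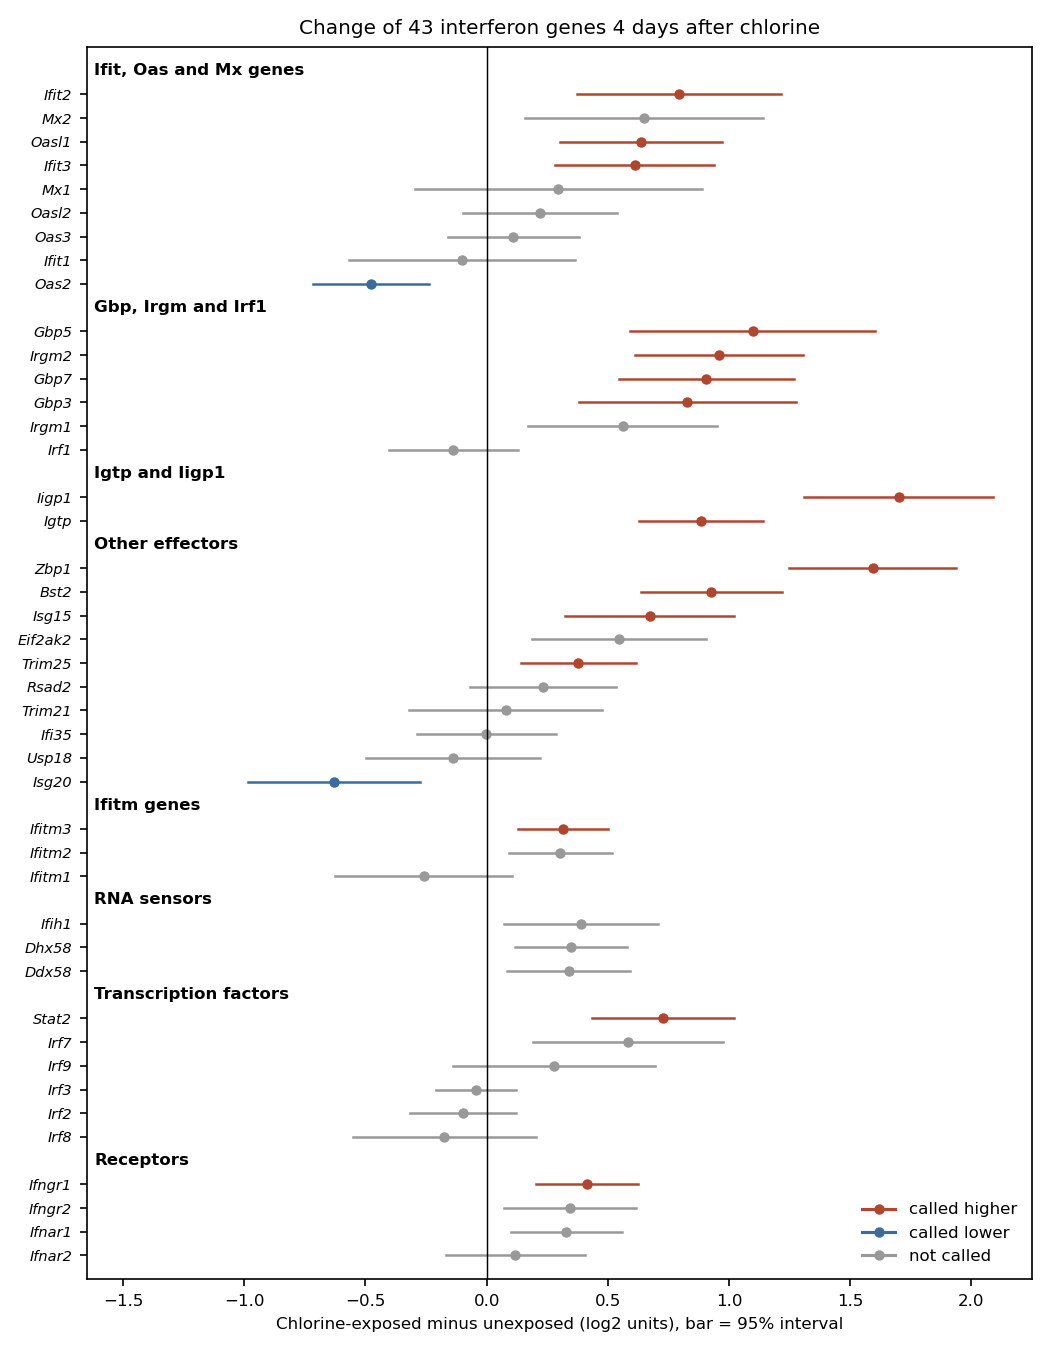
Difference between exposed and unexposed mice in log2 units for the 43 interferon genes, grouped by role, with 95% intervals from the limma fit (5 mice per group). Red genes were called higher, blue ones lower and grey ones not called. Iigp1 and Zbp1 lie farthest to the right, and Isg20 and Oas2 are the only called genes left of 0.

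Markers of white blood cells moved as well. The counts in the marker lists below stand beside 5.85% called higher and 4.97% called lower over all genes tested. Of 12 macrophage markers 8 were called higher and 0 lower, with Cd68 (1.79) and Mrc1 (1.41) in front. The 4 not called ran from -0.34 (Lyz2) to 0.49 (Mertk), with Cd14 (-0.28) also below 0. The mean level of the 12 was 7.70 to 8.46 in the exposed mice and 6.94 to 7.43 in the unexposed mice. Among 7 neutrophil markers, S100a8 (2.43) and S100a9 (1.59) were called higher and 0 lower, with means of 4.83 to 6.01 in the exposed mice and 4.06 to 4.45 in the unexposed mice. Of 9 T and natural killer cell markers, Cd3g (-2.08) and Ncr1 (-0.51) were called lower and 0 higher, and the 7 not called ran from -0.89 (Cd3e) to 0.60 (Gzma). Their means were 4.34 to 5.38 in exposed mice, where mouse 4 alone exceeded 4.44, and 4.81 to 5.16 in unexposed mice. Among 7 dendritic cell markers 2, Xcr1 (-0.81) and Ccr9 (-0.52), were called lower and 0 higher (means 5.37 to 5.65 in the exposed mice and 5.67 to 5.77 in the unexposed mice). Xcr1 (means of 3.85 in exposed and 4.66 in unexposed mice) and Ncr1 (3.55 and 4.06) lay below the array medians of 5.10 to 5.18. The exposed means of Cd3g (4.12) and Ccr9 (4.98) and the unexposed mean of S100a9 (4.93) also lay below those medians. The size of these changes is therefore uncertain. All 5 measured cell division genes were called higher, with Ccna2 (2.75) and Top2a (2.44) in front. Epithelial lists split. Krt14 (4.31), Krt17 (1.86) and 1 more of 6 basal cell markers were called higher. The other 3, Krt15 (-0.52), Trp63 (-0.40) and Ngfr (-0.12), were below 0 and not called. Sntn (-3.64), Dnah5 (-3.01) and 1 more of 6 ciliated cell markers were called lower, as was Bpifb1 (-3.44) of 6 secretory markers. None of 6 pan-epithelial markers was called either way. Of 8 mesenchyme markers 4 were called higher, led by Col3a1 (1.04) and Col1a1 (0.87). Tek (0.46) of 5 endothelial markers was called higher, Cnmd (-2.41) and Matn1 (-1.56) of 5 cartilage markers lower, and none of 3 B cell markers was called. With 1 mouse left out, the calls of S100a9, Ncr1, Tek and Col1a1 were lost in 4, 7, 8 and 1 of the 10 fits. Ptprc, the pan-leukocyte antigen, had a log2 difference of 0.22 (95% interval -0.28 to 0.73, adjusted p = 0.628). The part of these markers in the changes of the interferon genes was not tested.

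All 4 receptor chains had changes above 0, and the ligand-binding chain of the interferon gamma receptor was called. Ifngr1 stood at 8.44, 8.56, 8.59, 8.59 and 8.69 in exposed mice 1 to 5, against 8.07, 8.15, 8.29, 8.33 and 7.97 in unexposed mice 1 to 5, so that every exposed mouse was above every unexposed one, by 1.33-fold on average (log2 change of 0.41 with an SE of 0.10, adjusted p = 0.0185). Ifngr2, the signalling chain, had 8.35, 8.41, 8.71, 8.40 and 8.08 in exposed and 8.10, 8.21, 8.10, 8.03 and 7.79 in unexposed mice, with exposed mouse 5 below 3 of the unexposed mice (log2 change 0.34, 95% interval 0.07 to 0.62, adjusted p = 0.108). For Ifnar1 the values were 7.94, 8.11, 8.24, 8.33 and 7.94 in exposed and 7.79, 7.86, 7.86, 7.81 and 7.60 in unexposed mice; the groups did not overlap, although the gene missed the threshold (log2 change of 0.33 with an SE of 0.11, adjusted p = 0.0704). Its partner Ifnar2 overlapped widely, with 8.77, 9.08, 9.28, 9.12 and 8.88 in exposed and 9.17, 8.84, 8.96, 8.99 and 8.59 in unexposed mice (log2 change 0.12, 95% interval -0.17 to 0.40, adjusted p = 0.651). Ifngr1 was no longer called without unexposed mouse 1 (adjusted p 0.0156 to 0.0505 over the 10 fits that left out 1 mouse), and Ifnar1 was called without exposed mouse 1 (0.0493 to 0.154).

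Of 18 interferon ligand genes measured, 1 was called lower (5.56%) and none higher, a share of lower calls near the 4.97% of all genes, and their median change was -0.04. The gene called was Ifnk, which encodes a type I interferon of epithelial cells, with 5.20, 5.06, 4.48, 5.34 and 5.49 in exposed and 6.07, 5.88, 5.81, 6.18 and 6.05 in unexposed mice (log2 change of -0.88 with an SE of 0.17, adjusted p = 0.00685). Ifng had 3.98 to 4.34 in the exposed mice and 3.63 to 4.54 in the unexposed mice (log2 change 0.04, 95% interval -0.31 to 0.39, adjusted p = 0.916). Ifnb1 had 2.09 to 3.25 in the exposed mice and 1.71 to 2.27 in the unexposed mice (log2 change 0.58, adjusted p = 0.0987). Both lie below the array medians of 5.10 to 5.18, where a change in a transcript may not show.

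Among the transcription factors only Stat2 was called, and the regulatory factors of the Irf family were mixed. Stat2 had 7.16, 7.61, 7.65, 7.47 and 7.84 in exposed and 6.91, 6.66, 6.90, 7.01 and 6.63 in unexposed mice, a 1.66-fold rise without overlap (log2 change of 0.73 with an SE of 0.13, adjusted p = 0.00508) that held with any 1 mouse left out. Irf7, the amplifier of type I interferon production, had 7.01, 7.35, 7.05, 7.28 and 7.64 in exposed mice and 6.88, 7.13, 6.36, 6.79 and 6.27 in unexposed mice; 1 unexposed mouse reached into the exposed range and the gene missed the threshold (log2 change of 0.58 with an SE of 0.18, adjusted p = 0.0614). It passed without exposed mouse 1 or unexposed mouse 2 (0.0341 to 0.137). Irf9, the DNA-binding partner of Stat2, had a log2 difference of 0.28 (95% interval -0.14 to 0.69, adjusted p = 0.425). Irf3, which turns on interferon genes after viral sensing, and Irf2, an antagonist of Irf1, stood at 7.97 to 8.11 and 7.47 to 7.85 in exposed and 8.004 to 8.12 and 7.56 to 7.79 in unexposed mice. Their 95% intervals of the change were -0.21 to 0.12 and -0.31 to 0.12 log2 units. Irf8, a factor of myeloid and dendritic lineages, had a log2 difference of -0.18 (95% interval -0.55 to 0.20, adjusted p = 0.603) while most macrophage markers rose; its 2 probe sets gave -0.07 and -0.28.

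Of 16 other receptor, kinase and regulator genes on a list of the pathway, 2 were called higher (12.5%) and 1 lower (6.25%). Of all genes, 5.85% were called higher and 4.97% lower, so the share of lower calls was near that of all genes. The median change of the list was -0.08. Socs3, a feedback inhibitor of cytokine receptors that acts chiefly on the branch that signals through Stat3, rose 2.14-fold, with 7.25 to 7.50 in the exposed mice and 6.02 to 6.39 in the unexposed mice (log2 change of 1.10 with an SE of 0.10, adjusted p = 7.85e-05). Stat3, which conveys that branch, rose by 0.33 (adjusted p = 0.0332), but of the 10 fits with 1 mouse left out it was called in 2, those that omitted exposed mouse 1 or exposed mouse 5 (0.0322 to 0.0833). Irf4, a factor of lymphocytes and some myeloid cells, fell, standing at 4.27 to 4.88 in the exposed mice and 5.20 to 5.47 in the unexposed mice (log2 change of -0.71 with an SE of 0.13, adjusted p = 0.00486). Its exposed values lie under the array medians, so the size of the fall is uncertain. The kinases Jak1, Jak2 and Tyk2, which sit on the receptors, had log2 differences of 0.06, -0.12 and -0.03 (adjusted p = 0.779, 0.444 and 0.858), and were added with their values in view.

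The 3 cytosolic sensors of viral RNA had similar differences, all above 0, and none was called. Ifih1 had 7.40, 7.45, 6.98, 7.21 and 7.72 in exposed and 7.10, 7.04, 6.94, 7.10 and 6.63 in unexposed mice (log2 change of 0.39 with an SE of 0.15, adjusted p = 0.12). Ddx58, which encodes RIG-I, had 7.85, 8.10, 7.87, 8.04 and 8.39 in exposed and 7.88, 7.64, 7.71, 7.72 and 7.60 in unexposed mice (log2 change of 0.34 with an SE of 0.12, adjusted p = 0.0911). Dhx58, a relative that tunes the other sensors, had 6.45, 6.69, 6.21, 6.35 and 6.56 in exposed and 5.93, 6.19, 6.15, 6.10 and 6.15 in unexposed mice (log2 change of 0.35 with an SE of 0.11, adjusted p = 0.0588). Exposed mouse 3 fell inside the unexposed range for Ifih1, and exposed mice 1 and 3 did for Ddx58, whereas the groups did not overlap for Dhx58. Without exposed mouse 3, Ifih1 and Dhx58 were called (adjusted p 0.0443 to 0.235 and 0.0278 to 0.135 over the 10 fits). Of 10 genes of sensing and interferon induction listed besides, Tlr7, an endosomal sensor of single-stranded RNA, rose 2.62-fold, with 5.08 to 6.22 in the exposed mice and 3.92 to 4.78 in the unexposed mice (log2 change of 1.39 with an SE of 0.22, adjusted p = 0.00196). Its unexposed values lie under the array medians, so the fold is uncertain. Myd88, the adaptor of Toll-like receptors, rose by 0.60 (adjusted p = 0.0225), with the call lost without exposed mouse 5 or unexposed mouse 3, 4 or 5 (0.0194 to 0.0558). Ikbke, a kinase that activates Irf3, fell (-0.38, adjusted p = 0.0454), a call that held in 2 of the 10 fits, those without unexposed mouse 3 or 5 (0.0436 to 0.106). The other 7 were not called.

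The classical type I targets were called in both directions. Of 9 Ifit, Oas and Mx genes measured, Ifit2, Ifit3 and Oasl1 were called higher, Oas2 was called lower and 5 were not called, with a median change of 0.30 log2 units. Ifit proteins bind viral RNA and hinder its translation. Ifit2 had 5.995, 5.70, 5.55, 5.64 and 6.65 in exposed and 5.03, 5.21, 4.98, 5.003 and 5.35 in unexposed mice, a 1.73-fold rise without overlap (log2 change of 0.79 with an SE of 0.19, adjusted p = 0.0219). Ifit3 had 6.86, 7.04, 7.09, 7.11 and 7.36 in exposed and 6.84, 6.35, 6.05, 6.50 and 6.68 in unexposed mice (log2 change of 0.61 with an SE of 0.15, adjusted p = 0.0236), with exposed mouse 1 hardly above the highest unexposed mouse. Ifit1 had 7.24, 7.77, 6.69, 6.82 and 7.78 in exposed and 7.57, 7.28, 7.32, 7.47 and 7.16 in unexposed mice, so that exposed mice 3 and 4 were the lowest of all 10 and exposed mice 2 and 5 the highest. Its change was -0.10 (95% interval -0.57 to 0.37, adjusted p = 0.83) and turned to 0.09 without exposed mice 1 and 3. Ifit2 missed the threshold when unexposed mouse 1, 3 or 4 was omitted (adjusted p 0.0139 to 0.0544), and Ifit3 without any one of exposed mice 4 and 5 and unexposed mice 2 and 4 (0.0163 to 0.0587).

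The Oas genes encode synthetases whose short adenylate chains activate the RNA-cutting enzyme RNase L, and related proteins that lack this activity. Oas2 was called lower, with 8.03, 8.09, 8.07, 8.28 and 8.12 in exposed and 8.35, 8.52, 8.56, 8.90 and 8.65 in unexposed mice, so that the unexposed level was 1.39 times the exposed one (log2 change of -0.48 with an SE of 0.11, adjusted p = 0.0173). This fall held with any 1 mouse left out, but not without exposed mice 1 and 3 together (adjusted p = 0.0649). Oasl1, an inactive relative known in mice to restrain the making of Irf7 protein, had 5.89, 6.25, 6.15, 6.15 and 6.46 in exposed and 5.77, 5.49, 5.89, 5.15 and 5.42 in unexposed mice (log2 change of 0.64 with an SE of 0.15, adjusted p = 0.0207), with exposed mouse 1 level with unexposed mouse 3. Omitting mouse 5 of either group ended its call (0.0123 to 0.051). Oas3 had 5.38, 5.54, 5.57, 5.76 and 5.96 in exposed and 5.36, 5.43, 5.76, 5.56 and 5.56 in unexposed mice (95% interval of the change -0.16 to 0.38, adjusted p = 0.66). Oasl2 had 7.02, 7.60, 6.84, 6.97 and 7.16 in exposed and 6.94, 7.13, 6.77, 6.93 and 6.71 in unexposed mice (95% interval of the change -0.10 to 0.54, adjusted p = 0.399). Both overlapped between groups. 

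The Mx genes encode antiviral dynamin-like GTPases, and neither was called. Mx2 had 6.62, 7.05, 6.48, 6.99 and 7.79 in exposed and 6.29, 6.45, 6.71, 6.20 and 6.05 in unexposed mice, with the 2 lowest exposed values inside the unexposed range (log2 change of 0.65 with an SE of 0.22, adjusted p = 0.0938), and passed without exposed mouse 3 (0.0454 to 0.185). Mx1 had 4.99, 5.22, 4.33, 4.76 and 5.55 in exposed and 4.69, 5.33, 4.48, 4.95 and 3.93 in unexposed mice, with wide overlap around the array medians (95% interval of the change -0.30 to 0.89, adjusted p = 0.571).

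All calls among the classical type II targets were rises. Of the 6 Gbp, Irgm and Irf1 genes measured, 4 were called higher and none lower, with a median change of 0.87 log2 units. Guanylate-binding proteins coat the vacuoles of intracellular microbes and help to open them. Gbp5, which also promotes inflammasome assembly, had 4.77, 5.36, 5.96, 5.26 and 5.81 in exposed and 4.65, 3.83, 4.41, 4.14 and 4.65 in unexposed mice, a 2.14-fold rise without overlap (log2 change of 1.10 with an SE of 0.23, adjusted p = 0.0109); its unexposed values lie under the array medians, so the fold is uncertain. Gbp7 had 6.85, 7.31, 6.96, 7.42 and 7.59 in exposed and 6.68, 5.97, 6.33, 6.33 and 6.28 in unexposed mice, also without overlap (log2 change of 0.91 with an SE of 0.17, adjusted p = 0.00489). Gbp3 had 6.44, 6.49, 5.74, 6.46 and 6.99 in exposed and 5.41, 5.70, 5.81, 5.82 and 5.26 in unexposed mice (log2 change of 0.83 with an SE of 0.20, adjusted p = 0.0238). Only exposed mouse 3 fell among the unexposed values of Gbp3, and the call was lost without any one of exposed mice 2 and 4 and unexposed mice 1 and 5 (0.00281 to 0.0619).

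The immunity-related GTPases are large in number in mice and defend against vacuolar pathogens; Irgm1, Irgm2 and Igtp guard the cell's own membranes, and Iigp1 is an effector that settles on the vacuole. Irgm2 had 6.91, 7.53, 7.37, 7.19 and 7.88 in exposed and 6.57, 6.36, 6.40, 6.44 and 6.29 in unexposed mice, 1.95-fold higher (log2 change of 0.96 with an SE of 0.16, adjusted p = 0.00266). Irgm1 had 6.72, 7.11, 6.73, 6.81 and 7.43 in exposed and 6.91, 6.34, 6.21, 6.43 and 6.11 in unexposed mice (log2 change of 0.56 with an SE of 0.18, adjusted p = 0.068); unexposed mouse 1 alone reached the exposed range, and without it Irgm1 was called (0.0261 to 0.146). Igtp had 7.08, 7.34, 7.004, 7.38 and 7.50 in exposed and 6.25, 6.24, 6.42, 6.42 and 6.56 in unexposed mice (log2 change of 0.88 with an SE of 0.12, adjusted p = 0.00072). Its groups lay well apart. Iigp1 had the largest change of the 43 genes, with 8.38, 8.47, 8.17, 8.39 and 8.86 in exposed and 7.16, 6.86, 6.67, 6.87 and 6.20 in unexposed mice, a 3.25-fold rise (log2 change of 1.70 with an SE of 0.18, adjusted p = 0.00017). Irgm2, Igtp and Iigp1 were called in every fit with 1 mouse left out, as were Gbp5 and Gbp7. Irf1, the factor that drives many of these genes, had 6.14, 6.12, 6.35, 5.82 and 6.15 in exposed and 6.32, 6.08, 6.21, 6.54 and 6.12 in unexposed mice and thus overlapped (log2 change -0.14, 95% interval -0.40 to 0.13, adjusted p = 0.554).

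Set side by side, 3 of 9 type I targets (33.3%) and 4 of 6 type II targets (66.7%) were called higher. Oas2, 1 of the 9 type I targets (11.1%), was called lower, and none of the type II targets was. Of all genes tested, 5.85% were called higher and 4.97% lower. The median change of the type I targets lay 0.57 log2 units under that of the type II targets, and 0.60 under it when Igtp and Iigp1 were counted as type II targets. As medians of each mouse's deviation from the unexposed mean, the type I targets stood at 0.28, 0.56, 0.03, 0.23 and 0.87 log2 units in exposed mice 1 to 5, against 0.01, -0.05, -0.04, 0.03 and -0.12 in unexposed mice. The type II targets stood at 0.47, 0.94, 0.49, 0.82 and 1.33 in exposed mice, against 0.23, -0.12, -0.0004, 0.03 and -0.13 in unexposed mice. In all 5 exposed mice the type II median was the larger. The gap between the medians fell to 0.38 without unexposed mouse 2 and was 0.49 to 0.65 without any other mouse. It is given without a test, since genes are not replicates and close paralogs, among them the Ifit, Gbp and Irgm genes, may share probe signal.

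**Figure D3:**
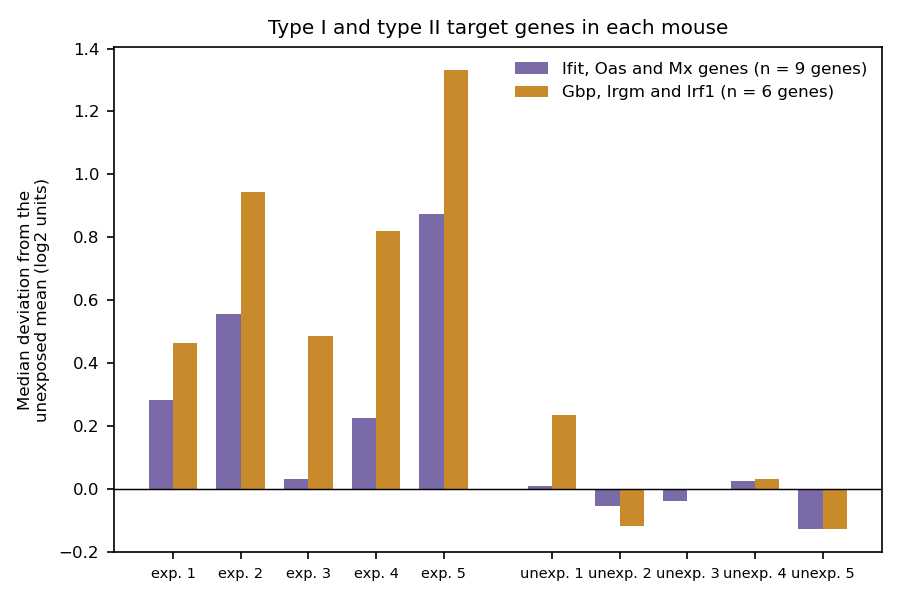
Median deviation from the unexposed mean, in log2 units, of the 9 type I targets (purple) and the 6 type II targets (orange) in each exposed mouse (left) and each unexposed mouse (right); bars start at 0. Exposed mouse 5 has the tallest pair of bars, and the orange bar is the taller in every exposed mouse.

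Of 10 other effectors, 4 were called higher and 1 lower. Zbp1, a sensor of left-handed nucleic acid that can set off necroptosis, had 8.08, 8.53, 7.88, 8.47 and 8.36 in exposed and 6.67, 6.59, 6.68, 7.05 and 6.35 in unexposed mice, a 3.02-fold rise with the smallest adjusted p of the 43 genes (log2 change of 1.59 with an SE of 0.16, adjusted p = 0.000133). Bst2, or tetherin, which holds budding virus to the cell surface, had 7.28, 7.87, 7.55, 7.94 and 7.43 in exposed and 6.66, 6.71, 6.84, 6.69 and 6.56 in unexposed mice (log2 change of 0.93 with an SE of 0.13, adjusted p = 0.00116). Both calls held with any 1 mouse left out. Isg15, a ubiquitin-like modifier, had 6.79, 7.60, 7.09, 7.44 and 7.62 in exposed and 6.77, 6.54, 6.78, 6.48 and 6.62 in unexposed mice; exposed mouse 1 was only just above the unexposed mice (log2 change of 0.67 with an SE of 0.16, adjusted p = 0.02), and the call was lost without exposed mouse 4 or unexposed mouse 4 (0.00264 to 0.0531). Trim25, the ubiquitin ligase that activates RIG-I, had 7.88, 7.89, 7.83, 8.01 and 8.23 in exposed and 7.62, 7.66, 7.40, 7.77 and 7.48 in unexposed mice (log2 change of 0.38 with an SE of 0.11, adjusted p = 0.0446), a small rise that was called in 3 of the 10 fits, those that omitted exposed mouse 1 or 3 or unexposed mouse 4 (0.0418 to 0.104).

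Isg20, an exonuclease that degrades RNA, fell, with 7.81, 7.59, 7.24, 7.63 and 7.91 in exposed and 8.37, 8.06, 8.10, 8.73 and 8.07 in unexposed mice; the unexposed level was 1.55 times the exposed one (log2 change of -0.63 with an SE of 0.16, adjusted p = 0.0284). All exposed values lay below all unexposed ones, but the call was lost without any one of exposed mice 2 and 4 and unexposed mice 1 and 4 (0.0279 to 0.0693) and without exposed mice 1 and 3 together (adjusted p = 0.065). Eif2ak2, the kinase PKR that halts translation on viral RNA, missed the threshold (log2 change of 0.55 with an SE of 0.16, adjusted p = 0.0552) and passed without exposed mouse 3 or unexposed mouse 4 (0.0387 to 0.122), and in 8 of 18 alternatives in all. Several well-known interferon-stimulated genes were not called. Rsad2, or viperin, had 4.49 to 5.13 in the exposed mice and 4.39 to 4.85 in the unexposed mice (95% interval of the change -0.07 to 0.54). Usp18, which removes Isg15 and dampens the type I receptor, had a log2 difference of -0.14 (95% interval -0.50 to 0.22). Trim21, an intracellular antibody receptor, had a log2 difference of 0.08 (-0.32 to 0.48). For Ifi35 the mean change was -0.0016, but its 2 probe sets went opposite ways, -0.20 and 0.19.

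The Ifitm proteins hinder the fusion of virus with cell membranes. Ifitm3 had 11.85, 12.01, 11.82, 11.93 and 11.88 in exposed and 11.62, 11.56, 11.68, 11.64 and 11.43 in unexposed mice, a 1.25-fold rise without overlap (log2 change of 0.32 with an SE of 0.08, adjusted p = 0.0345) that was called in 3 of the 10 fits, those that omitted exposed mouse 1 or 3 or unexposed mouse 3 (0.0381 to 0.0832). Ifitm2 had 10.82, 11.02, 11.20, 10.99 and 11.09 in exposed and 10.85, 10.55, 10.71, 10.74 and 10.76 in unexposed mice and missed the threshold (log2 change of 0.30 with an SE of 0.10, adjusted p = 0.0708), passing without exposed mouse 1 (0.0366 to 0.152). Ifitm1 had a log2 difference of -0.26 (95% interval -0.62 to 0.10, adjusted p = 0.387). The 3 genes are close relatives whose probes may not separate them fully.

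On a longer list of other interferon targets, calls were again mostly rises. Of 45 measured, 11 were called higher (24.4%) and 1, Ifi27, lower (2.22%), with a median change of 0.28. Over all genes tested the shares were 5.85% and 4.97%, and the median change was -0.0035. Ifi27 was named after its value was seen. Ifit1bl1, a mouse relative of Ifit1, rose 5.56-fold, with 5.93, 5.64, 4.36, 4.48 and 6.06 in exposed and 3.10, 3.18, 2.88, 2.98 and 1.96 in unexposed mice (log2 change of 2.48 with an SE of 0.36, adjusted p = 0.00133). Those unexposed values lie far below the array medians, so the fold is uncertain. Samhd1, which depletes the nucleotides that viruses need and is also known in host DNA replication, rose 2.23-fold, with 9.21 to 9.94 in the exposed mice and 8.21 to 8.49 in the unexposed mice (log2 change of 1.16 with an SE of 0.13, adjusted p = 0.000243). Gbp10 was up 1.91-fold (log2 change of 0.93 with an SE of 0.14, adjusted p = 0.00182) and Trim30a 1.88-fold (log2 change of 0.91 with an SE of 0.21, adjusted p = 0.0178), and all 4 calls held with any 1 mouse left out. Not every Gbp gene of this list rose. Gbp9 was called higher (0.65, adjusted p = 0.0497), a call lost in 7 of the 10 fits with 1 mouse left out. Gbp4 (0.16), Gbp6 (-0.06) and Gbp8 (-0.09) were not called, and their means lay below the array medians, where a change may not show. These Gbp genes were named with their values in view. The chemokines Cxcl9, Cxcl10 and Cxcl11, which draw T cells and are induced by interferon gamma, had log2 differences of 0.41, 0.23 and -0.08 (adjusted p = 0.625, 0.635 and 0.913); these, too, were picked with their values in view.

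Within the exposed group, mouse 5 held the highest value for 27 of the 43 genes (62.8%), against 19.4% of all genes tested, and mice 1 and 3 held the lowest for 19 and 20 of them. The receptors differed from this order, with a median deviation of 0.44 in mouse 3, their highest, and 0.10 in mouse 5, their lowest. Among unexposed mice, mouse 5 was the lowest for 24 of the 43 (55.8%), against 22.6% of all genes. The median deviation of the 43 genes from the unexposed mean was 0.27, 0.49, 0.24, 0.35 and 0.58 log2 units in exposed mice 1 to 5, against 0.07, -0.03, 0.01, 0.04 and -0.16 in unexposed mice, so that the groups did not overlap. The same measure of 5 cell division genes was 1.89, 2.44, 1.90, 2.33 and 2.90 in exposed mice and -0.05, -0.06, 0.03, 0.13 and -0.13 in unexposed mice. Exposed mouse 5 was highest and mouse 2 next in both. For the 12 macrophage markers it was 0.47, 0.95, 1.28, 0.59 and 0.94 in exposed mice and 0.13, 0.07, 0.17, 0.08 and -0.30 in unexposed mice, with mouse 3, the lowest for the interferon genes, on top. T and natural killer cell markers were at -0.73, -0.84, -0.48, 0.36 and -0.66 in exposed mice and -0.22, 0.05, 0.01, 0.05 and 0.14 in unexposed mice, and mouse 4 stood out. Secretory markers were at -0.47, -0.86, -6.71, -2.10 and -2.13 in exposed mice and 0.02, -0.02, -0.03, 0.03 and -0.05 in unexposed mice. The part of cell makeup in the order of the mice was not tested.

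**Figure D4:**
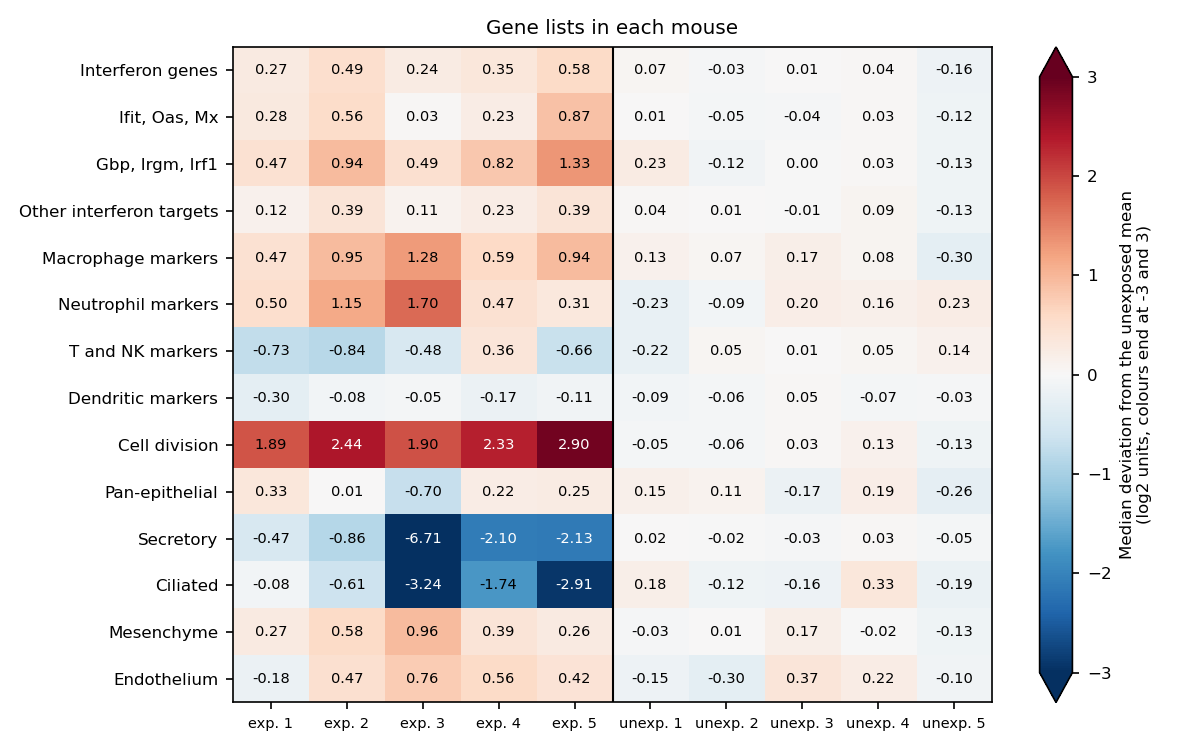
Median deviation from the unexposed mean, in log2 units, for interferon gene lists and marker lists (rows) in each exposed mouse (left of the line) and each unexposed mouse (right of it), printed in each cell; colours end at -3 and 3. Of the 4 interferon rows drawn, the first 3 are highest in exposed mouse 5 and that of the other targets is level in mice 2 and 5, while the macrophage and neutrophil rows are highest in exposed mouse 3.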

How the data were processed

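Expression was measured in 10 mice, 1 array each. The authors deposited log2 intensities, 1 per probe set, computed by RMA, with Partek 6.6 also named, per the submitters' processing notes. That they are log2 was judged from their range; the RMA settings and the genome build were not given in the sources used here. Of 41345 probe sets, 23521 named 1 gene, 1814 several and 16010 are unnamed in the platform annotation; the first kind gave 22180 genes, each the mean of its probe sets. RMA borrows strength over arrays and compresses low values, and no detection call was at hand. The comparison of exposed with unexposed mice used lmFit and eBayes of limma 3.58.1 under R 4.3.3 (two-sided, no covariate), p adjusted by Benjamini-Hochberg over all genes; the fit was tested on simulated data. Figures and tables used Python 3.11.15, pandas 2.3.3 and matplotlib 3.10.9. The members and lists were chosen with earlier results of these data known. All listed genes are described; from each list of other pathway genes the called genes with the largest changes, up to 4, were named, with Ifnb1 and Ifng whatever their values (1 further gene of this rule is not reported here), and from each marker list the 2 called genes with the largest changes. Alternatives were renormalization, median centring, a filter on dim genes, the brightest probe set, another variance model, weights per array, a block for the mouse number, a stricter threshold and mice left out. The mouse numbers are shared by both groups, but deviations of same-numbered mice correlated at -0.049 to 0.125, so the numbers were not taken to pair mice.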

Additional observations from a re-analysis of the deposited data

Results flagged for a closer look

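Of 86 sets of 5 mice examined, 1 per interferon gene and group, 2 had a mouse far from the other 4. Chance alone gives such a mouse in about 5% of sets, a larger share than was seen here. The 2 sets are therefore listed for description only. Irf2 stood at 7.85 in exposed mouse 5, above 7.47 to 7.52 in the other exposed mice. Ifnar1 stood at 7.60 in unexposed mouse 5, below 7.79 to 7.86 in the other unexposed mice.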

How the results depend on the processing

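Of the interferon genes 17, 19, 21, 16, 20 and 20 were called higher, and 2 lower each time, after renewed quantile normalization, centring on array medians, leaving out the dimmer genes, taking the brightest probe set, a trended robust variance and array weights. The filter on dim genes also took out 4 of the 43, Ifit2 and Gbp5 among the called and Mx1 and Rsad2 among the others. Of the genes not called, 9 were called in at least 1 alternative: Eif2ak2, Irf7, Dhx58, Irgm1, Ifitm2, Ifnar1, Ddx58, Mx2 and Ifih1. With the mouse number as a replicate block 10 were called higher and 2 lower; no mouse number was shown to mark a pair, and 1 of the 5 exposed mice correlated best with its own number. At an adjusted p under 0.01, 7 were higher and 0 lower, and over all genes 619 and 435. Without exposed mice 1 and 3, 22 were higher and 0 lower. For this pair, the block and the alternatives before it, counts over all genes are not given here. Their counts of interferon genes are therefore not set against all genes. With 1 mouse left out, 11 to 20 were higher and 1 to 2 lower, the median change of the 43 genes was 0.31 to 0.41, the type I minus type II difference -0.65 to -0.38, and over all genes 944 to 1432 were higher and 723 to 1407 lower, the counts of lower genes being 725 and 723 without unexposed mice 1 and 4. No called gene changed sign under any alternative. Of genes not called, Ifi35 turned to 0.029 with median centring, 0.0033 with array weights and 0.033 without exposed mice 1 and 3, and Ifit1 to 0.094 without that pair; with 1 mouse left out Ifit1 ran from -0.23 to 0.042, Ifi35 from -0.10 to 0.057 and Trim21 from -0.045 to 0.16. The causes were not tested. With 5 arrays a group and no detection limit, small changes and genes near the array medians are least certain.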
